A study of Mus musculus with 24 samples.

Results

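The CpG-sparse promoters of the mouse dentate gyrus methylome are cytosines that lay within 1000 bases of a transcription start of a protein-coding gene and had 5 or fewer CpG dinucleotides in the 101-base window centred on them. The starts were those of the protein-coding genes of GENCODE M21 on the mouse genome build mm10 (GRCm38). The CpGs were counted in the sequence of that build, so that the definition itself uses no methylation value. This part of the table was chosen, however, with earlier results of these data known. The definition gave 93626 of the 762182 measured cytosines, of which 93622 were CpGs and were analysed. They lay at 13298 of 21951 annotated protein-coding genes, with a median of 6 sparse CpGs per gene. At 11081 of these genes the same promoter also held measured CpGs in windows with 6 or more CpGs, here called dense, and at 2217 genes it held none. There were 283879 dense promoter CpGs and 384661 CpGs outside promoters in the table.

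The study asked how age and environmental enrichment (ENR), a large enclosure with rearranged toys and more cage mates in place of a standard cage (STD), bear on DNA methylation in the dentate gyrus, a region of the hippocampus where new neurons form in adult mice too. Methylation was measured by reduced representation bisulfite sequencing (RRBS), which cuts DNA at CCGG with the enzyme MspI, sequences the short fragments from their ends and reads unmethylated cytosines as thymine after bisulfite treatment. The Young STD group held 5 female C57BL/6JRj mice of 1.5 months in standard cages. The Aged STD group held 7 and the Aged ENR group 7 female mice of the same strain, aged 14 months, kept in standard cages or in enrichment. The enrichment of the Aged ENR mice had begun when they were young and lasted most of their lives, so the Aged ENR and Young STD groups differed in both age and housing. Mice of a Young ENR group were not analysed here. The tissue was the whole dissected dentate gyrus, so that a value is a mean over neurons, glia and vessel cells, and a change in the share of a cell type cannot be told apart from a change within cells. Values were deposited as percent methylation per cytosine and mouse for sites read at least 10 times. Numbers of reads were not part of the table analysed here, so that the depth behind each value is unknown and no counting interval can be given.

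Most CpGs of a mammalian genome are methylated, and the promoters of broadly used genes are the main exception, because they lie in CpG islands, stretches of many closely spaced CpGs that stay unmethylated. Promoters with few CpGs follow another pattern, in which methylation differs between genes and cell types and is often low where the gene is in use and high where it is silent. On the X chromosome of a female, the inactive copy of many promoters carries methylation and the active copy does not.

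The 8 windows printed here show what such promoters look like and where the values below come from. Each is the 101-base window of 1 measured CpG upstream of the start of a named gene, read from mm10 on the strand of the measured cytosine, in lower case with every CpG in capitals and the measured CpG in the centre. The windows of Zbtb38 (chr9:96752855-96752955, minus strand), Armcx5 (chrX:135742009-135742109, plus strand) and Slc28a3 (chr13:58558388-58558488, minus strand) are shown because these promoters were among those lower in aged mice, and that of Aqr (chr2:114119599-114119699, plus strand) because it was among those higher. Neil1 (chr9:57148360-57148460, plus strand) and Bdnf (chr2:109692828-109692928, minus strand) stand for the unmethylated end, and Rhox9 (chrX:37902151-37902251, minus strand) and A1cf (chr19:31868541-31868641, plus strand) for the methylated end. In 6 of the 8 windows the central CpG is part of an MspI site, CCGG, and in Rhox9 and A1cf it is not.
Zbtb38: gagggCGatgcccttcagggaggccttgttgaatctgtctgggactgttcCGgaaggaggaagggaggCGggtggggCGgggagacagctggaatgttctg
Armcx5: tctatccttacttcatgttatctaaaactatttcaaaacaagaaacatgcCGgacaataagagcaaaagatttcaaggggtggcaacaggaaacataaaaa
Slc28a3: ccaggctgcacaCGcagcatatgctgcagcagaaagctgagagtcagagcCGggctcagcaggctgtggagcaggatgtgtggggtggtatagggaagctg
Aqr: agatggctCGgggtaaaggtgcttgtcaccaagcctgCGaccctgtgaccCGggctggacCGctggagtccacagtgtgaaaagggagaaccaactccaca
Neil1: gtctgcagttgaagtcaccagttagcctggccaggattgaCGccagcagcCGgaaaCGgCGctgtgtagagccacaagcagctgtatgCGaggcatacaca
Bdnf: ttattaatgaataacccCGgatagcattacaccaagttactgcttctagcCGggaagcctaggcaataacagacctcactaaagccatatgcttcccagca
Rhox9: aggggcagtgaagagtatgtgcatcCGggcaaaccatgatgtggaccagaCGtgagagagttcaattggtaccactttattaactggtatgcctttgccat
A1cf: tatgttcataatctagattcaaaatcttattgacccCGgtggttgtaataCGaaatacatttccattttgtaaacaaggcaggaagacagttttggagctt

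Single CpGs of these windows varied widely between mice of 1 group. The central CpG of the Armcx5 window, for example, was methylated at 15.4, 45.5, 71.4, 100 and 50% in the Young STD mice. That of the Slc28a3 window was at 31.9, 3.77, 20, 50 and 0%, and at 0 in 6 of 7 Aged STD mice and 39.7% in the other. The central CpG of Neil1 was at 0 in 5 of 5 Young STD mice, whereas that of Rhox9 was at 100% in 4 of 5 and at 69.8% in the remaining mouse. For this reason genes were compared by the mean over all sparse CpGs of a promoter, corrected for which of them a mouse had covered, and here called the promoter value. It could be formed for 10279 promoters with 3 or more sparse CpGs. Because of the correction it can fall slightly below 0 where a promoter is unmethylated.

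In Young STD mice the sparse promoter CpGs were mostly unmethylated but far less uniformly so than the dense ones. Their mean level was 16.6% and their median 1.75%, with 77.2% of the CpGs under 20% methylation and 8.66% over 80%. Dense promoter CpGs averaged 2.46%, and CpGs with 5 or fewer CpGs in their window but away from promoters averaged 60.2%. Sparse promoter CpGs therefore lay between both, closer to the dense promoters. The level fell steadily with the number of CpGs in the window, from 35% where the measured CpG was the only one to 19.7% with 3 and 8.61% with 5 CpGs. There was no step at the limit of the definition, since windows with 6 CpGs averaged 5.49%, and CpGs in the last 50 bases before the distance limit averaged 28.7% against 31.9% in the 50 bases beyond it. CpGs of 1 promoter and neighbouring windows share sequence and reads, so that these levels are descriptions.

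**Figure D1:**
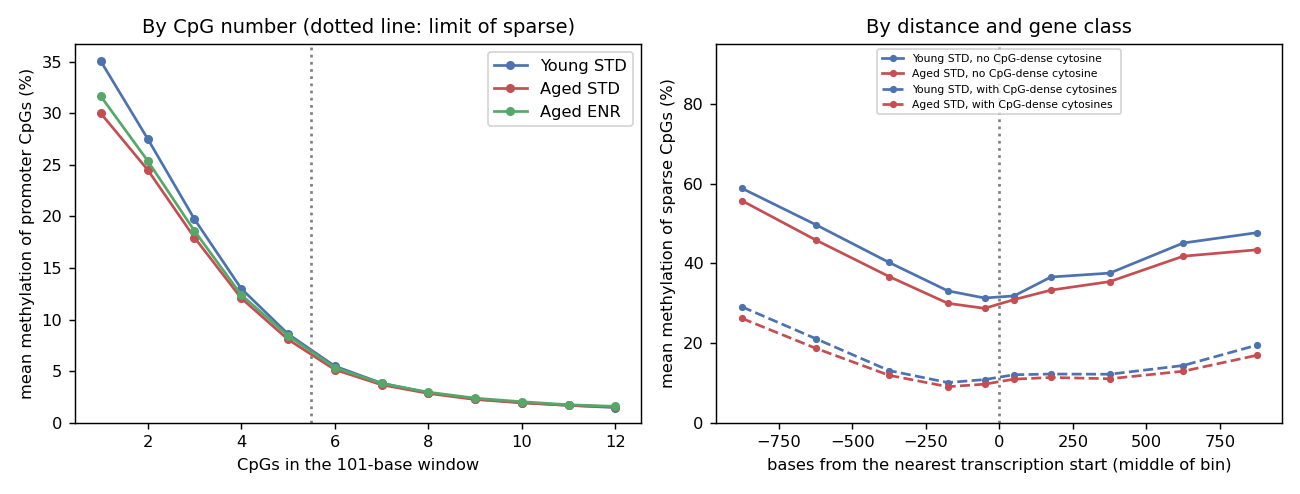
Left, mean methylation (%) of promoter CpGs in each group against the number of CpGs in the 101-base window, with the dotted line at the limit between sparse and dense. Right, mean methylation (%) of sparse promoter CpGs in Young STD (blue) and Aged STD (red) mice against the distance from the nearest start in bases, for genes with dense CpGs (dashed) and without (solid). Levels fell from 35.0% at 1 CpG to 8.61% at 5 CpGs in Young STD mice and were lowest around the start.

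The level also varied with position and with the kind of promoter. From 32.5% in the outermost 250 bases upstream, the mean in Young STD mice fell to 12.1% between 100 and 250 bases upstream of the start and rose again to 22.4% in the outermost 250 bases downstream. Sparse CpGs of the 2217 genes whose promoter held no dense CpG averaged 39.3%, and those of genes whose promoter also held dense CpGs averaged 14%. Downstream of the start, CpGs in coding sequence were more methylated, at 30.7%, than CpGs in introns at 13.9% and in exons outside coding sequence at 12.1%. The 4965 CpGs within repeats averaged 26.8%. On the X chromosome the mean was 40.2%, against 15.9% on the autosomes. The 12 sparse CpGs of the mitochondrial genome stood at 1.06%.

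The sparse windows also differed from the dense ones in the short sequences they held, searched on both strands. The GC box GGGCGG, bound by Sp1, was found in 8.67% of sparse and 32.5% of dense windows, and it contains a CpG itself. Sparse CpGs whose window held it averaged 8.28% methylation in Young STD mice, and those without averaged 17.4%. The TATA sequence TATAAA was more frequent in sparse windows (2.26% against 0.626%), as was CCAAT (11.1% against 7.94%). The cAMP response element TGACGTCA, which also holds a CpG, was rare in both, at 0.161% and 0.658% of windows. Windows overlap, so that 1 match can be counted for several CpGs.

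Of 10055 sparse promoters with a value in Young STD mice, 7092 lay under 20%, 2512 between 20% and 80% and 451 above 80%, and the median was 5.86%. The median was 32.8% for promoters without dense CpGs and 4.63% for those with. Gene groups differed widely along this range. Several groups of genes known from other tissues stood highest. The median was 84.7% for 13 promoters of keratins and other skin proteins, 83.7% for 30 promoters of receptors for odours and pheromones, 80.1% for 10 promoters of liver and pancreas genes, 67.9% for 11 of spermatogenesis and 47.8% for 19 of striated muscle. Few receptor genes of the nose were covered, since 78 of 1477 had a sparse promoter CpG in the table. The 8 promoters of lymphocyte and myeloid genes had a median of 63.5%. Examples were fibrinogen beta (Fgb, 93.8% ± 4.8 (SD, n = 5)), keratin 42 (Krt42, 91% ± 5.45 (SD, n = 4)) and the pheromone receptor Vmn1r65 (84.2% ± 5.28 (SD, n = 5)). The groups were not uniform, since Olfr314, an odour receptor, stood at 22.9% ± 18.6 (SD, n = 5) and Krt18, a keratin of simple epithelia, at 28% ± 9.64 (SD, n = 5). Many promoters of these groups held no dense CpG, with 26 of 30 for nasal receptors, 8 of 10 for liver and pancreas and 8 of 13 for keratins. The counts were 10 of 20 for muscle, 5 of 8 for lymphocyte and myeloid genes and 3 of 11 for spermatogenesis. Whether gene groups differed beyond this kind of promoter was not tested.

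Genes used in the dentate gyrus or in every cell stood near the other end. Markers of granule neurons, the main neurons of the dentate gyrus, had a median of 2.72% over 16 promoters, with 15 under 20%, and the neuronal growth factor gene Nrn1 was at 4.28% ± 2.65 (SD, n = 5). Genes switched on by neuronal activity were covered completely, with a sparse CpG at 25 of 25 genes and a median of 2.11% over the 22 promoters with a young value. Markers of the stages of adult neurogenesis had a median of 3.04% over 14 promoters, although Cdk1, the kinase that drives cells into division, reached 26.9% ± 1.89 (SD, n = 5). Ribosomal protein genes had a median of 2.54% over 61 promoters, zinc finger (Zfp) genes 2.28% over 205 and histone genes 1.43% over 15. Promoters without dense CpGs were 1 of 16 for granule neuron markers, 0 of 24 for activity-induced genes and 0 of 14 for neurogenesis markers. They were 3 of 62 for ribosomal protein, 45 of 207 for zinc finger and 4 of 17 for histone genes. Medians close to the 5.86% of all sparse promoters, below or above it, were seen for groups beyond these. Markers of astrocytes had a median of 4.79% over 16 promoters, neuropeptides and pituitary hormones 7.58% over 14 and chemokines, interleukins and interferons 4.99% over 16. The astrocyte lipid carrier Apoe stood at 1.62% ± 1.71 (SD, n = 5), and the drug-oxidising cytochrome P450 genes at a median of 6.45% over 9 promoters.

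Markers of other cell types of the tissue had medians in the lower part of the range, but single promoters spread widely. Above 80% were 1 oligodendrocyte, 2 endothelial and pericyte and 1 general neuronal promoter. The highest stood at 83.1%, 83.1% and 86.9%. Oligodendrocyte markers had a median of 23.8% over 13 promoters, with the myelin basic protein gene Mbp at 20.7% ± 4.49 (SD, n = 5) and the gap junction gene Gjb1, which is X-linked, at 39.8% ± 6.64 (SD, n = 5). Pdgfra, the receptor of their precursors, stood at 2.53% ± 0.982 (SD, n = 5). Endothelial and pericyte markers had a median of 13.6% over 13 promoters, with the vascular growth factor receptor Flt1 at 26% ± 2.14 (SD, n = 5), and the 3 promoters of microglial genes ranged from 10.8% to 31.6%. Markers of neurons in general had a median of 5.36% over 18 promoters and included Gad1, which makes the transmitter GABA in interneurons, at 10.9% ± 3.23 (SD, n = 5). Clustered protocadherins, adhesion proteins of which each neuron uses a few, had a median of 43.7% over 19 promoters, with 3 under 20% and 0 above 80%. Of the taste receptors, 1 gene of 38 had a sparse CpG and none a promoter value.

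**Figure D2:**
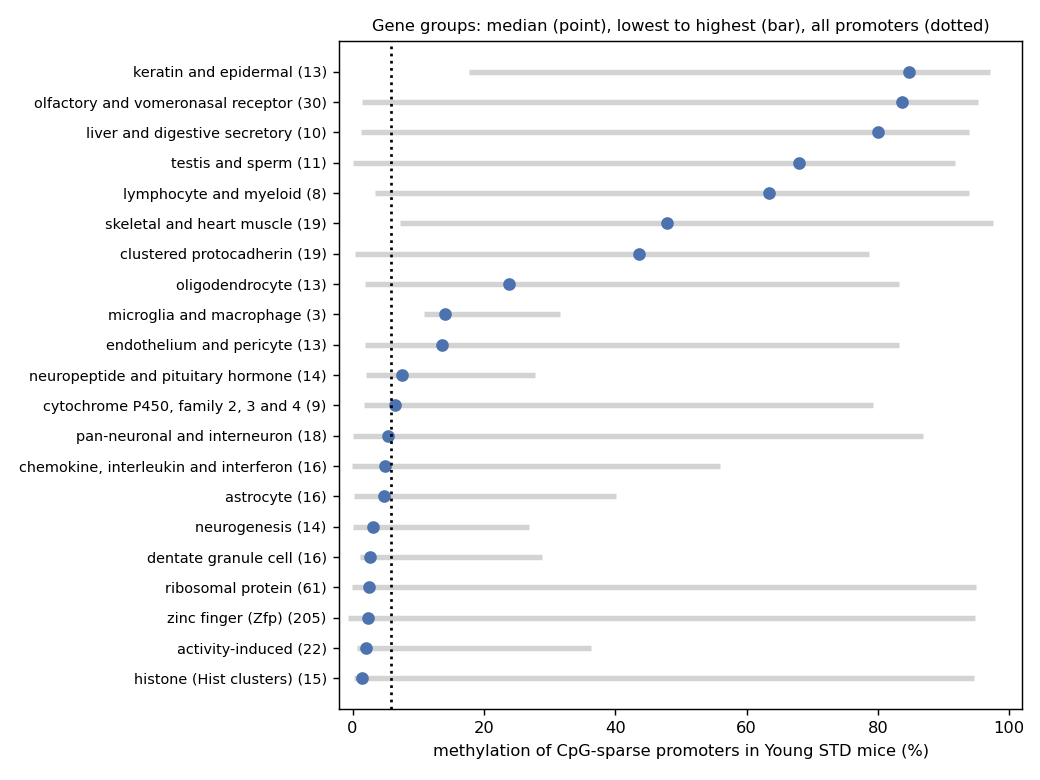
Promoter values (%) of CpG-sparse promoters in Young STD mice for 21 gene groups, with the number of promoters in brackets. The point is the median, the grey bar runs from the lowest to the highest promoter and the dotted line is the median of all sparse promoters, 5.86%. Keratin, nasal receptor and liver groups had medians over 80%, and histone, activity-induced and ribosomal protein groups had medians under 3%.

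The single promoters at both ends of the range in Young STD mice were as follows. Among promoters with at least 10 sparse CpGs and a value in each of the 19 mice, the lowest in Young STD mice were Neil1, a glycosylase of DNA base excision repair, at -0.0745% ± 0.119 (SD, n = 5), the window shared by Fkbp15 and the copper transporter gene Slc31a1 at -0.0683% ± 0.0631 (SD, n = 5), and Atxn7, part of a histone acetylating complex, at -0.0394% ± 0.612 (SD, n = 5). Slc9a3r1, a scaffold protein of membrane transporters, and Mrm1, which methylates mitochondrial ribosomal RNA, had means under 0.1%. The highest were the X-linked homeobox gene Rhox9 of the reproductive tract at 95.7% ± 4.34 (SD, n = 5), AU022751 on the X chromosome at 95.4% ± 3.45 (SD, n = 5), the testis channel subunit gene Lrrc52 at 95.1% ± 3.29 (SD, n = 5) and the heparan sulfate enzyme gene Ndst2 at 93.4% ± 3.62 (SD, n = 5). Gm15262 on the X chromosome and A1cf, an RNA-binding partner of an editing enzyme in liver and gut, followed at 91.8% and 90.5%. The promoters with the most sparse CpGs were low throughout. Tfap2a with 66 CpGs was at 7.03%, 6.75% and 7.76% in the young, aged standard and aged enriched groups, and Bdnf, the neurotrophin gene with several alternative starts and 61 sparse CpGs, was at 1.42% ± 0.716 (SD, n = 5), 2.4% ± 1.72 (SD, n = 7) and 2.71% ± 1.26 (SD, n = 7).

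Libraries differed in which CpGs they covered, and this moved with the sparse promoters. The share of sparse promoter CpGs measured in a mouse ranged from 69.0% to 96.1%. In 4 libraries, Aged STD replicates 3, 4 and 6 and Aged ENR replicate 4, the covered CpGs of the table were those with low methylation in young mice, with a mean young level of 19.5% to 23.4%, compared with 28.1% to 38.0% in the other 15. The same 4 libraries had the lowest values at the X-linked sparse promoters. Over 141 such promoters with a value in each mouse, the means were 32.9, 31.7, 33.3, 38.7 and 36.2% in the Young STD mice, 17.5% to 20.6% in the 3 Aged STD libraries, 20.6% in the Aged ENR library and 29.3% to 38.8% in the other aged mice. Without the 4 libraries the X-linked means were 34.5% in Young STD, 32.5% in Aged STD and 32.7% in Aged ENR mice. What set these libraries apart was not tested.

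With age, the mean methylation of the sparse promoters was lower in standard housing. Over the 15366 sparse CpGs that were measured in each of the 19 mice, which are less methylated than the rest, the Young STD mice had means of 7.18, 7.33, 7.19, 8.31 and 8.55%. The Aged STD mice ranged from 5.53% to 8.3%, and 6 of 7 lay below every Young STD mouse. The group means were 7.71% ± 0.664 (SD, n = 5) and 6.67% ± 0.94 (SD, n = 7), a difference of -1.04 points or -13.5%. It was -4.06 points when each mouse contributed all the sparse CpGs measured in it, which differed between libraries, and -1.5 points once corrected for the CpGs a mouse lacked. The dense promoter CpGs measured in the same mice differed by -0.0896 points from a young mean of 2.43% ± 0.158 (SD, n = 5). Libraries came in 2 numbered series, and the young mice of series 37 had higher means than those of series 27. Within series 27 the difference was -0.898 points, with all 4 aged mice below the 3 young ones, and within series 37 it was -1.31 points, with all 3 below both. Without the 4 libraries the Aged STD mean was 7.31% (n = 4), so that the difference from the Young STD mice was smaller than the spread between mice.

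The lower level with age was larger in size at CpGs that lie in the cutting site of the enzyme. A cytosine in CCGG can lie at the end of an RRBS fragment, and 34749 of the 93622 sparse promoter CpGs were of this kind. Library preparation fills in the cut ends with unmethylated cytosine, which the study trimmed from reads with a detected adapter, and a filled-in base that remains is read as unmethylated. Whether any remained, and in which libraries, was not tested. This split was chosen after values had been seen and is a description. Over CpGs in MspI sites, 5673 of which were measured in all mice, the Young STD mice had means of 9.94, 10.1, 9.94, 11.6 and 11.7%, while the Aged STD mice ranged from 6.52% to 10.9% with 6 of 7 below all young mice. The group means were 10.7% ± 0.905 (SD, n = 5) and 8.36% ± 1.5 (SD, n = 7), a change of -21.6%. Over the 9693 CpGs outside MspI sites the means were 5.99% ± 0.525 (SD, n = 5) and 5.68% ± 0.639 (SD, n = 7), a change of -5.1%, and the groups overlapped. Within library series 27 and 37 the differences were -2.01 and -2.78 points in MspI sites. Without the 4 libraries, the Aged STD means were 9.41% in MspI sites and 6.09% outside them, the second being above the young mean.

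**Figure D3:**
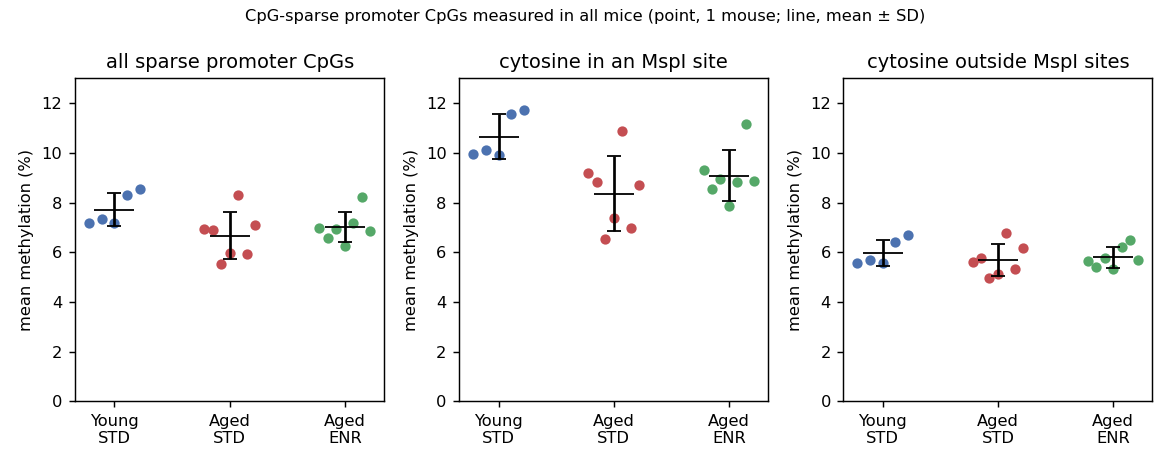
Mean methylation (%) of the sparse promoter CpGs measured in all 19 mice, for all of them (15366), those in an MspI site (5673) and those outside MspI sites (9693). Each point is 1 mouse, and lines are the group mean ± SD. In MspI sites 6 of 7 Aged STD and 6 of 7 Aged ENR mice lay below all Young STD mice. The highest mouse of each aged group, at 10.9% and 11.2%, lay within the Young STD range. Outside MspI sites the groups overlapped more widely.

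The split was also present in other divisions of the sparse CpGs. Over all sparse CpGs, those in MspI sites averaged 22% in Young STD, 18.4% in Aged STD and 19.6% in Aged ENR mice, and the others 13.4%, 13% and 13.3%. When CpGs were sorted by the base before and the base after them, the Aged STD mean differed from the Young STD mean by -0.118 to -0.724 points in the 15 other contexts. With a single CpG in the window, the level went from 38% to 31.4% in MspI sites and from 25.5% to 25.4% outside them. With 5 CpGs it went from 10.9% to 9.7% and from 7.83% to 7.53%. It was present at genes without dense CpGs (43.3% to 38% in sites, 35.4% to 34.8% outside) and at those with dense CpGs. On the autosomes the level went from 21.2% to 17.9% in sites and from 12.8% to 12.6% outside them. The autosomal Aged STD level without the 4 libraries was 19.4% in sites and 12.9% outside them, the latter slightly above the young level. On the X chromosome, outside MspI sites, it went from 35.1% to 30%, and without the 4 libraries the Aged STD level there was 34.4%. In X-linked sites the level was 48.3% and 39.2%, the latter being 45.1% without them. The split was not confined to sparse promoters. When dense promoter CpGs were sorted by the same neighbouring bases, those in MspI sites had the largest fall in points, from 4.97% to 4.71%. Over all promoters, sparse and dense, the median Aged STD minus Young STD difference was -0.506 points in MspI sites and 0.0717 outside them.

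Pairs of neighbouring CpGs gave the same comparison within a mouse. A pair was a sparse CpG in an MspI site and the next sparse CpG outside a site on the same strand, at most 60 bases away, and the value was the level of the first minus that of the second. Over 3548 pairs measured in all mice the difference was 1.24 to 1.75 points in the 5 Young STD mice, -0.82 to 0.776 in the 7 Aged STD mice and -0.264 to 1.18 in the 7 Aged ENR mice. Without the 4 libraries the ranges were -0.446 to 0.776 in 4 Aged STD and -0.264 to 1.18 in 6 Aged ENR mice. The Young STD mice did not overlap with either aged group, and the aged groups overlapped with each other. Over 3160 pairs with an intermediate mean of 20% to 80%, the difference averaged -5.01 ± 1.62 points in the young group (SD, n = 5), -16.4 ± 6.46 in the aged group in standard cages (SD, n = 7) and -12.7 ± 4 with enrichment (SD, n = 7). Here too every aged mouse lay below every young mouse, also without the 4 libraries, when the Aged STD mice ranged from -17.4 to -9.6 points and the Young STD mice from -7.65 to -3.59. What makes the CpGs of the cutting site differ from their neighbours in aged mice was not tested.

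**Figure D4:**
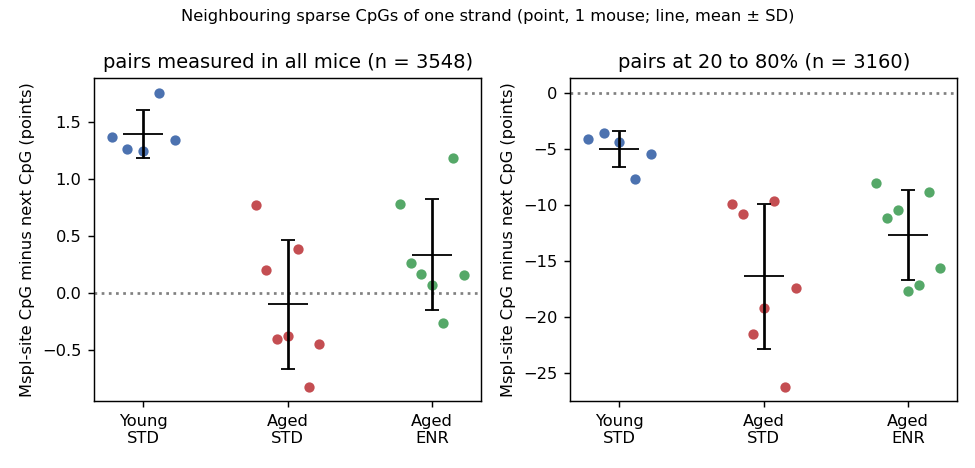
Methylation of a sparse CpG in an MspI site minus that of the next sparse CpG on the same strand (percentage points), for 3548 pairs measured in all mice and for 3160 pairs with a mean of 20% to 80%. Each point is 1 mouse, and lines are the group mean ± SD. Young STD mice lay above all aged mice in both panels.

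Promoter by promoter, limma with Benjamini-Hochberg adjustment over all 20888 promoters fitted called 0 of 9840 sparse promoters by age in standard housing at an adjusted p under 0.05, and the background over all promoters was 0.0%. The smallest adjusted p was 0.458, and the other settings called between 0 and 2 (background 0.00954% for the fit that called 2). At an unadjusted p under 0.05, 644 sparse promoters were lower with age (6.54%, background 4.37% of all promoters) and 125 were higher (1.27%, background 1.3%), so that 83.7% of the 769 were lower. The majority was smaller when the composition of the libraries was a covariate (348 of 652 lower), without the 4 libraries (289 of 480), and over CpGs outside MspI sites (273 of 406), and larger over CpGs in MspI sites (592 of 615). Over all promoters, sparse and dense, the same 4 fits gave 514 of 1228, 414 of 815, 493 of 721 and 765 of 835 lower. On the X chromosome 50 of 323 sparse promoters were lower and 2 higher at this level, and without the 4 libraries 19 of 298 were lower and 6 higher. On the other chromosomes 594 of 9517 sparse promoters were lower and 123 higher, and without the 4 libraries 270 of 8728 were lower and 185 higher. Dense promoters of the X chromosome were not counted separately, so that these counts cannot be called particular to sparse promoters. Among 5895 sparse promoters with a value in every mouse compared, the Aged STD range lay wholly below the Young STD range at 23 (0.39%, background 0.23%) and above them at 6 (0.102%, background 0.141%).

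The largest of these separated differences were at Uprt, Zbtb38, Tbcel and Ndst1. Uprt, an X-linked gene related to uracil salvage enzymes, was measured at 15 sparse CpGs at chrX:104483038-104483579 of mm10, 11 of them in coding sequence. Its promoter values were 31.3, 32.3, 21.7, 37.3 and 54.1% in the Young STD mice and from 1.86% to 17.3%, with a median of 9.09% in the Aged STD mice. All aged mice in standard housing therefore lay below all young mice, with a difference of -25.3 points (SE 4.93, unadjusted p = 0.000179, adjusted p = 0.474, limma). Zbtb38, a zinc finger protein that binds methylated DNA, had 11 sparse CpGs from 74 bases upstream to 85 bases downstream of its starts. The values were 24.6, 25.5, 37.8, 57.7 and 32.7% in Young STD mice and from 4.68% to 19.7%, with a median of 11.8% in Aged STD mice, a difference of -24.6 points (SE 5.29, unadjusted p = 0.000427, adjusted p = 0.474, limma). The Aged ENR mice overlapped with both groups, from -1.01% to 48.3%, with a median of 22.5% (n = 6). Tbcel, a tubulin cofactor related gene, had 11 CpGs outside exons, and its means were 46% ± 6.11 (SD, n = 5) and 25.6% ± 8.28 (SD, n = 7), a difference of -20.5 points. Ndst1, which modifies heparan sulfate, was measured at 27 CpGs and had values of 56.3, 50.4, 43.8, 53.2 and 45.7% in Young STD mice and from 19.1% to 39.4%, with a median of 31.4% in Aged STD mice, a difference of -18.8 points (SE 4.05, unadjusted p = 0.000426, adjusted p = 0.474, limma). These promoters were lower both in and outside MspI sites, with differences of -16.7 and -16.6 points at Ndst1 and -28.9 and -21.9 at Uprt. Without the 4 libraries the differences were -23.3 points at Uprt, -23.6 at Zbtb38, -17.9 at Tbcel and -15.1 at Ndst1.

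Fewer promoters were higher with age, and the named ones with separated ranges differed by smaller amounts. Of 66 sparse promoters that differed by over 25 points, 60 were lower. Sox14, a transcription factor of neuronal subtypes, was unmethylated in young mice at 0.412, 0.218, 1.6, 0.8 and 0% and stood from 1.97% to 17.1%, with a median of 5.84% in Aged STD mice, a difference of 6.1 points (SE 2.17, unadjusted p = 0.0144, adjusted p = 0.799, limma). Dad1, a subunit of the enzyme that attaches sugars to new proteins, was at 30.5% ± 2.68 (SD, n = 5) and 36.6% ± 2.01 (SD, n = 7), and its 8 sparse CpGs were shared with Abhd4. The difference at Dad1 was 6.02 points (unadjusted p = 0.0514, limma) and -0.42 when only the CpGs in MspI sites were used. Etl4 with 29 CpGs was at 14% ± 3.45 (SD, n = 5) and 19.2% ± 1.94 (SD, n = 7), and the plain mean over the CpGs measured in each mouse gave -2.18 points in place of 5.21. Dhodh, the mitochondrial enzyme of pyrimidine synthesis, was nearly constant in young mice, at 10.2, 10, 10, 10.03 and 9.83%, and stood from 10.8% to 19.8%, with a median of 13.3% in Aged STD mice. The difference at Dhodh was 3.63 points (unadjusted p = 0.064, limma), and without the 4 libraries it was 2.02 points (unadjusted p = 0.252, limma). Without them Sox14 differed by 7.69 points, Dad1 by 5.79 and Etl4 by 6.12. A larger difference was seen at Atp2a3, a calcium pump of the endoplasmic reticulum, where 4 Aged STD mice with a value averaged 27.8% ± 6.49 (SD, n = 4) against 2.72% ± 5.85 (SD, n = 5), a difference of 25.1 points (SE 3.87, unadjusted p = 6.0e-05, adjusted p = 0.458, limma). Atp2a3 was 1 of the 2 sparse promoters called when all groups entered 1 fit, with an adjusted p of 0.0434 in limma, and it is named here after its value was seen. The other was Phf24, listed at 0 in the 4 Aged STD mice with a value and at a mean of 15.2% in 3 Young STD mice.

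**Figure D5:**
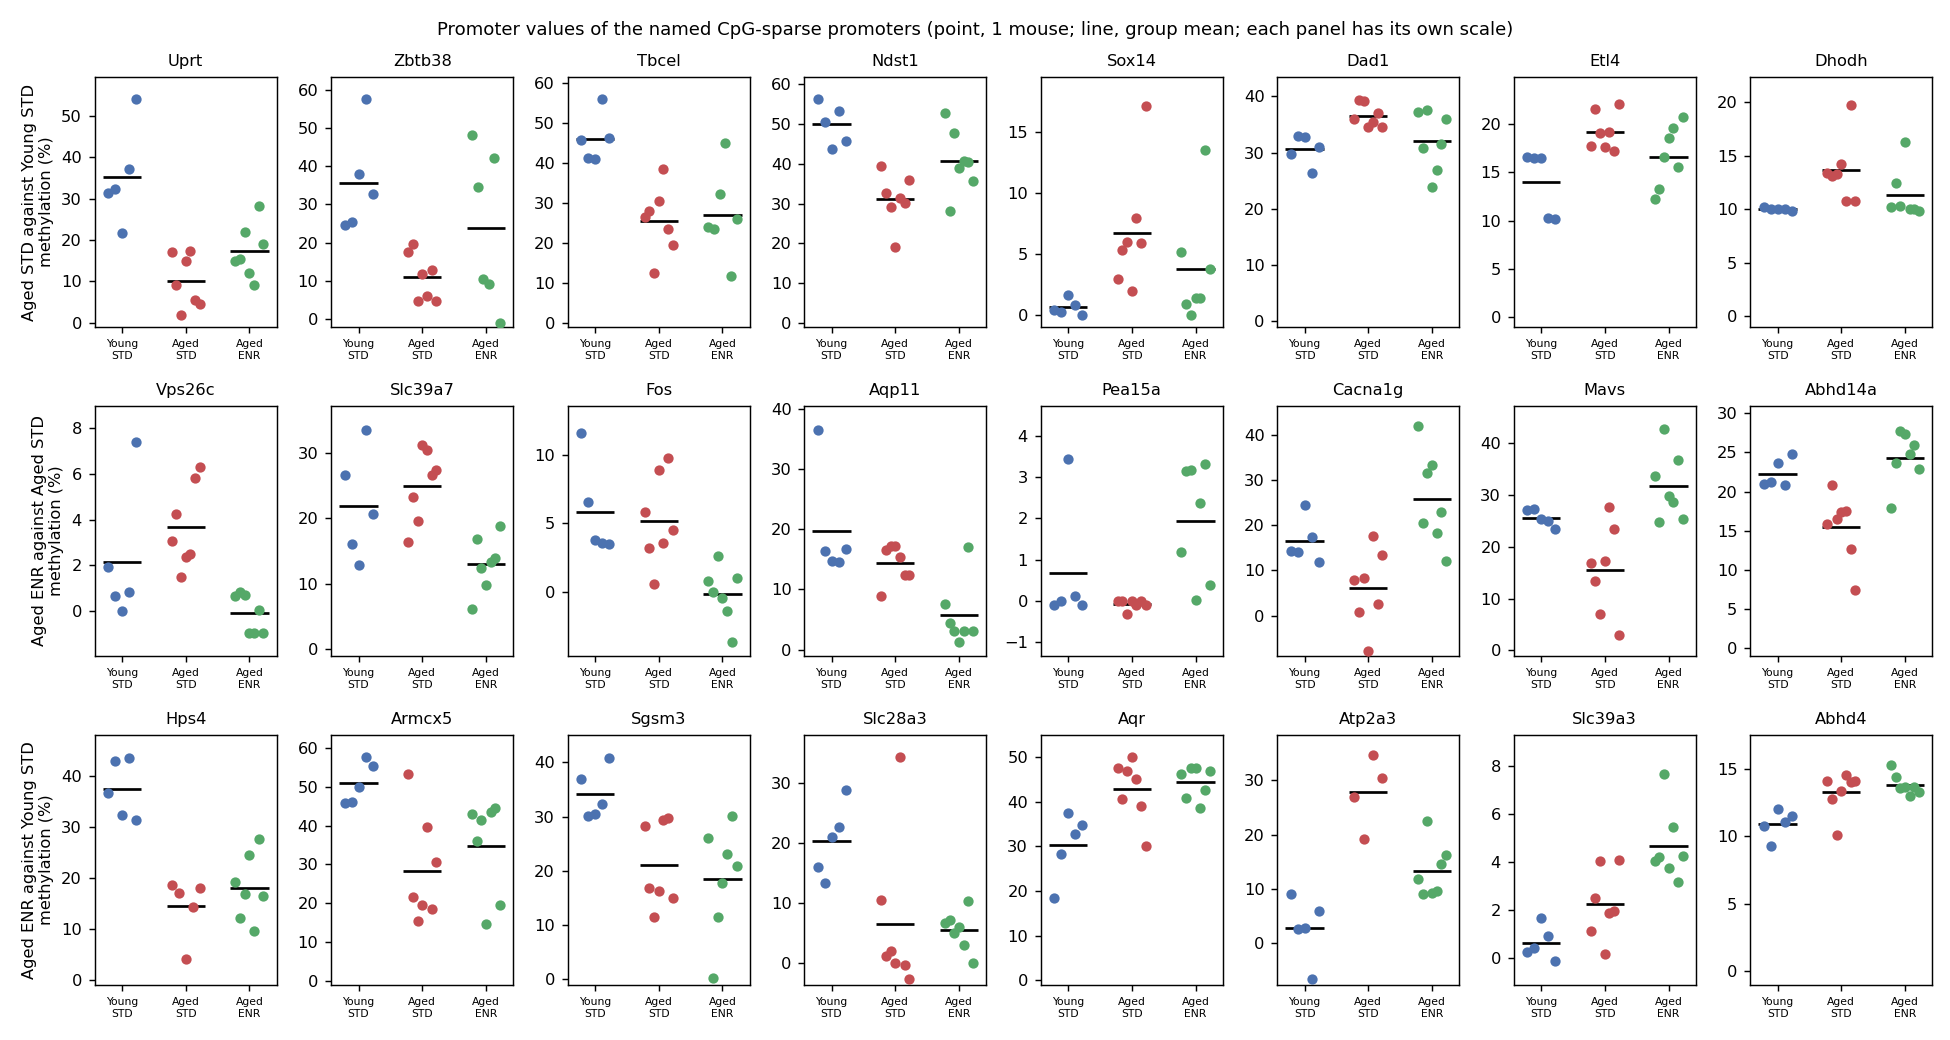
Promoter values (%) of 24 CpG-sparse promoters in each mouse (points) with group means (lines), in blue for Young STD, red for Aged STD and green for Aged ENR. The rows hold the promoters named for Aged STD against Young STD, Aged ENR against Aged STD and Aged ENR against Young STD, each panel with its own scale. Uprt, Zbtb38, Tbcel and Ndst1 were lower in all Aged STD than in all Young STD mice.

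By gene group, few promoters differed with age. Over all sparse promoters tested Aged STD minus Young STD had a median of -0.474 points, and 6.54% were lower and 1.27% higher at an unadjusted p under 0.05. It was -0.91 points for the 16 granule neuron markers, with 1 lower and 0 higher at an unadjusted p under 0.05, -2.46 for the 13 oligodendrocyte markers with 1 lower and 0 higher, -2.76 over 17 muscle genes with 1 lower and 0 higher, and 0.307 for the 14 neurogenesis markers with 1 lower and 0 higher. Of 16 astrocyte markers 2 were lower and 0 higher, with a median of -0.0583 points. Activity-induced genes had a median of -0.169 points, with 1 of 22 lower and 0 higher. Ribosomal protein genes had 6 of 61 lower and 0 higher, with a median of -0.584 points, and zinc finger genes had 5 of 202 lower and 6 higher, with a median of -0.236 points. Among the keratin genes, whose median was 2.46 points and so above 0, 2 of 11 were lower and 0 higher, one of the lower being Krt79 at 31.5% ± 8.41 (SD, n = 5) and 20.7% ± 3.48 (SD, n = 7). Clustered protocadherins had a median of -2.17 points, with 1 of 19 lower and 0 higher. Pcdhga10, a member with 30 sparse CpGs, was not among the lower ones, at 47.1% and 45%. None of these promoters passed the adjusted threshold in limma.

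Among single sparse CpGs more were lower than higher with age, and none passed the adjusted threshold. Of 67717 tested, limma called 0 at an adjusted p under 0.05 with a difference over 25 points (background 0.0%), whereas a fit with 1 prior variance for all CpGs called 13 (0.0192%, background 0.0214%). Of these 13, which were lower in Aged STD mice and rested on 3 to 7 mice a group, 10 were in MspI sites. Examples, named after their values were seen, were the CpG of Pcbp3, an RNA-binding protein, at 94.0% in 5 Young STD and 3.70% in 3 Aged STD mice, and that of Slc13a3, a carrier of dicarboxylates, at 39.2% in 5 and 4.37% in 6 mice. At an unadjusted p under 0.05, 2289 were lower (3.38%, background 3.33%) and 497 higher (0.734%, background 1.09%). Differences over 25 points were seen at 3722 lower CpGs (5.5%, background 7.19%) and 1116 higher ones (1.65%, background 2.17%). Among CpGs in MspI sites 7.65% were lower by over 25 points and 1.06% higher, and outside them 3.7% and 2.14%. The majority of lower CpGs at an unadjusted p under 0.05 was 721 of 1407 without the 4 libraries, and a minority, 1219 of 3262, with library composition as a covariate. Over all CpGs these counts were 6716 of 12228 and 11158 of 24708.

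Both strands of a CpG were measured as separate cytosines at 10499 sparse CpGs, which gives an estimate of the error of 1 value. At the 782 pairs with a mean level of 20% to 80%, the SD between strands within a mouse was 28.7 to 45.6 points, with a median of 36.2. The 255 CpGs that were lower by over 25 points on the plus strand in Aged STD mice averaged -34.7 points there and -10.9 points on the minus strand, where the choice had not been made. For the 69 that were higher by over 25 points on the plus strand, the means were 32.2 and -3.22 points. Between Aged ENR and Aged STD mice, the 127 chosen as higher averaged 33.6 and 3.85 points, and the 67 chosen as lower -34.7 and 0.656. Between Aged ENR and Young STD mice, the 195 chosen as lower averaged -34.6 and -8.62 points, and the 76 chosen as higher 32.4 and -0.643.

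Between the housing conditions the aged mice overlapped at nearly all sparse promoters. Over the CpGs measured in all mice, the Aged ENR mice ranged from 6.26% to 8.21% with a mean of 7.01% ± 0.609 (SD, n = 7), which was 0.338 points above the Aged STD mean and within its spread, and 0 of 7 lay outside the Aged STD range. With all the sparse CpGs measured in each mouse it was 1.70 points, and 0.513 once corrected for those a mouse lacked. Without the 4 libraries the difference turned to -0.181 points, and with library composition as a covariate to -0.0668. Leaving out 1 mouse also moved it, to 0.138 without Aged ENR replicate 6, to 0.148, 0.220 and 0.216 without Aged STD replicates 3, 4 and 6, and to 0.609 without Aged STD replicate 5. In MspI sites the Aged ENR mean was 9.08% ± 1.02 (SD, n = 7), 0.721 points above Aged STD, and without the 4 libraries the means were 9.28% and 9.41%. Limma called 0 of 9907 sparse promoters (background 0.0%), with a smallest adjusted p of 0.911, and no other setting called any. At an unadjusted p under 0.05, 179 were lower in Aged ENR mice (1.81%, background 1.74%) and 271 higher (2.74%, background 2.28%). With library composition as a covariate 293 of 514 were lower, without the 4 libraries 256 of 387, over CpGs in MspI sites 74 of 232 and over those outside them 124 of 282. All promoters taken, these fits gave 583 of 1000, 474 of 706, 177 of 456 and 282 of 594 lower. Ranges were apart at 2 of 5730 promoters lower (0.0349%, background 0.0154%) and 1 higher (0.0175%, background 0.0154%).

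The promoters named for this comparison were Vps26c, Slc39a7, Fos and Aqp11 on the lower side and Pea15a, Cacna1g, Mavs and Abhd14a on the higher side. Vps26c, a subunit of a complex that recycles membrane proteins, was from 1.48% to 6.32%, with a median of 3.06% in Aged STD mice and from -0.959% to 0.814%, with a median of 0.0407% in Aged ENR mice. The ranges did not overlap, and the difference was -3.78 points (SE 0.854, unadjusted p = 0.000471, adjusted p = 0.911, limma). Slc39a7, a zinc transporter of the endoplasmic reticulum, was at 25% ± 5.55 (SD, n = 7) and 13% ± 4.21 (SD, n = 7), and Aqp11, a water channel, at 14.3% ± 3.14 (SD, n = 7) and 5.68% ± 5.38 (SD, n = 7). Fos, the immediate early gene of neuronal activity, had 12 sparse CpGs at chr12:85473551-85475635 and was at 5.2% ± 3.24 (SD, n = 7) and -0.136% ± 1.99 (SD, n = 7), a difference of -5.33 points (SE 1.44, unadjusted p = 0.00203, adjusted p = 0.911, limma). This difference depended on the definition of the promoter, since it was 1.09 points with the starts of coding transcripts alone and 0.314 within 500 bases. Pea15a, a phosphoprotein of astrocytes, was from -0.321% to 0%, with a median of 0% in Aged STD and from 0.0213% to 3.31%, with a median of 2.38% in Aged ENR mice, with no overlap and a difference of 2.02 points (SE 0.542, unadjusted p = 0.00195, adjusted p = 0.911, limma). Cacna1g, a T-type calcium channel, was at 6.13% ± 8.49 (SD, n = 7) and 25.8% ± 10.3 (SD, n = 7), with 16.4% ± 4.95 (SD, n = 5) in Young STD mice. Mavs, the mitochondrial adaptor of antiviral signalling, was at 15.5% ± 8.67 (SD, n = 7) and 31.6% ± 6.45 (SD, n = 7), and Abhd14a at 15.4% ± 4.3 (SD, n = 7) and 24.3% ± 3.36 (SD, n = 7). At Cacna1g the difference was 3.45 points in MspI sites and 26.7 outside them, and at Abhd14a 13.3 and 1.9.

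The gene groups gave few differences between the housing conditions. The median over all sparse promoters was 0.187 points, with 1.81% lower and 2.74% higher at an unadjusted p under 0.05. It was 0.079 points for activity-induced genes, with 1 lower and 1 higher at an unadjusted p under 0.05, 0.297 for granule neuron markers with 0 lower and 1 higher, -0.081 for neurogenesis markers with 0 lower and 1 higher, 1.13 for astrocyte markers with 0 lower and 1 higher, and 0.379 for the 13 oligodendrocyte markers with 0 lower and 2 higher. Clustered protocadherins had a median of 2.36 points with 0 of 20 lower and 2 higher. Bdnf differed by 0.313 points and the neurogenesis gene Ccnd2 by 2.43 points, from 1.77% ± 1.73 (SD, n = 7) to 4.2% ± 2.63 (SD, n = 7). Of 68294 single CpGs, limma called 0 (background 0.0%), and the fit with 1 prior variance called 1 (0.00146%, background 0.00358%), at Sik1, a kinase of cAMP signalling, with 100% in 3 Aged STD and 9.44% in 5 Aged ENR mice. Differences over 25 points were seen at 1337 lower CpGs (1.96%, background 2.62%) and 2130 higher ones (3.12%, background 4.53%). At an unadjusted p under 0.05 there were 546 lower (0.799%, background 0.797%) and 835 higher CpGs (1.22%, background 1.45%). The direction turned without the 4 libraries (815 of 1193 lower, and 5115 of 9381 over all CpGs) and with library composition as a covariate (1428 of 2141, and 9435 of 16590).

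The Aged ENR mice were also compared with the Young STD mice, so that this comparison and the first share their young mice. The mean over CpGs measured in all mice differed by -0.703 points, with 5 of 7 Aged ENR mice below all Young STD mice, by -1.58 points in MspI sites with 6 of 7 below, and by -0.192 points outside them with 2 of 7 below. It was -2.36 points with all the sparse CpGs measured in each mouse, and -0.992 once corrected for those a mouse lacked. Limma called 0 of 9842 sparse promoters (background 0.0%), with a smallest adjusted p of 0.256, while the logit scale called 3 (background 0.0144%), Arf1, Ephb4 and Zfp37. At an unadjusted p under 0.05, 518 were lower (5.26%, background 3.57%) and 147 higher (1.49%, background 1.35%). With library composition as a covariate 359 of 614 were lower, without the 4 libraries 427 of 576, over CpGs outside MspI sites 207 of 338 and over those in MspI sites 415 of 450. The corresponding counts over all promoters were 547 of 1129, 613 of 924, 411 of 608 and 569 of 656. Ranges were apart at 23 of 5933 promoters lower (0.388%, background 0.222%) and 6 higher (0.101%, background 0.126%).

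Among these, Hps4, a factor of lysosome-related organelles, had promoter values of 36.7, 43.1, 32.5, 43.7 and 31.5% in Young STD mice and from 9.59% to 27.7%, with a median of 16.8% in Aged ENR mice, a difference of -19.5 points (SE 3.76, unadjusted p = 0.000165, adjusted p = 0.382, limma). Its Aged STD mean was 14.4% ± 6 (SD, n = 5), also below. Slc28a3, a nucleoside carrier without dense CpGs at its promoter, was at 16, 13.4, 21.1, 22.6 and 28.9% in Young STD and from 0.00545% to 10.3%, with a median of 6.12% in Aged ENR mice, a difference of -14.9 points (SE 2.67, unadjusted p = 8.3e-05, adjusted p = 0.279, limma). In Aged STD mice it was from -2.52% to 34.3%, with a median of 1.28%, with replicate 5 above all young mice and the other 6 below. Armcx5, on the X chromosome, was at 51% ± 5.4 (SD, n = 5) in the young mice, at 28.4% ± 13.9 (SD, n = 7) in aged mice of standard cages and at 34.7% ± 12.4 (SD, n = 7) after enrichment. Its difference between the Aged ENR and the young mice was -16.3 points, and -13 without the 4 libraries. Sgsm3, a regulator of small G proteins, was in the same order at 34.1% ± 4.61 (SD, n = 5), 21% ± 7.8 (SD, n = 7) and 18.5% ± 10.02 (SD, n = 7). The promoters that were higher were Aqr, an RNA helicase of the spliceosome, at 18.4, 28.3, 37.4, 32.7 and 34.7% in Young STD mice and from 38.6% to 47.7%, with a median of 46.2% in Aged ENR mice, with a difference of 14.1 points (SE 3.82, unadjusted p = 0.00265, adjusted p = 0.792, limma). With the starts of coding transcripts alone its difference was -0.0729 points. Atp2a3 followed with 13.3% ± 4.93 (SD, n = 7) in Aged ENR mice, although within 500 bases of the start its difference from Young STD mice was -4.61 points. Slc39a3, a zinc transporter, was at 0.621% ± 0.684 (SD, n = 5) and 4.66% ± 1.51 (SD, n = 7), and Abhd4, a lipid hydrolase, at 10.9% ± 1.04 (SD, n = 5) and 13.8% ± 0.78 (SD, n = 7).

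Of 66921 single CpGs, limma called 0 between Aged ENR and Young STD mice (background 0.0%), and the fit with 1 prior variance called 4 (0.00598%, background 0.0155%), at Dgka, Tinf2, Inpp5f and Pcdh19. The CpG of Pcdh19, a protocadherin of the X chromosome, was at 48.4% in 3 Young STD and 97.4% in 5 Aged ENR mice, and that of Inpp5f, an inositol phosphatase, at 43.8% in 3 and 2.38% in 7 mice. Differences over 25 points were seen at 2850 lower CpGs (4.26%, background 5.21%) and 1259 higher ones (1.88%, background 2.39%), and at an unadjusted p under 0.05 there were 1804 lower (2.7%, background 2.55%) and 599 higher CpGs (0.895%, background 1.4%). With library composition as a covariate the lower ones became a minority (1390 of 3150, and 11864 of 24147 over all CpGs), and without the 4 libraries they were 1381 of 2027 (10643 of 17593 over all CpGs). In MspI sites 5.59% were lower by over 25 points and 1.33% higher, and outside them 3.15% and 2.34%.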

How the data were processed

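Dentate gyrus DNA of 19 mice in 3 groups was analysed from 1 table of percent methylation per cytosine and mouse. Per the labels and the study's methods, the authors trimmed single-end RRBS reads (with the filled-in bases where an adapter was found), aligned them to mm10 and called methylation with Bismark, kept cytosines with at least 10 reads, removed those of very high coverage with methylKit, and kept sites measured in at least 3 mice per group, and the percent values were deposited without read numbers. The submitters' processing notes name Trim Galore 0.4.0, cutadapt 1.8.1, Bismark 0.16.1 and methylKit 1.5.2. The depth per sample is therefore unknown, and its effect on precision could not be computed. All 19 sample columns were matched to labels, leaving 0 unmatched. Each sample is 1 mouse per the study's methods, and the group sizes limit the precision. DNA came from either of 2 extraction kits, which the labels do not assign to samples.

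The table's cytosines were placed against GENCODE M21 and the mm10 sequence with Python 3.11.15, pandas 2.3.3 and numpy 2.4.6. Cytosines not in a CpG were left out. A promoter value is the mean over its sparse CpGs (at least 3 in the promoter and 3 measured in the mouse), corrected for the typical level of the CpGs a mouse lacked, so that it can fall slightly below 0 or above 100. Groups with at least 3 mice each were compared pairwise with limma 3.58.1 in R 4.3.3 (moderated test, two-sided, trend in the prior variance), fitted over all promoters or all CpGs and adjusted by Benjamini-Hochberg, and CpGs also needed a difference over 25 points. Means over CpGs measured in all mice are given by mouse with no test. The composition index of a library is the mean young-group methylation of the CpGs measured in it. The scripts were tested on simulated data. With residuals of the real mice, a change of 20 points was put into 200 sparse promoters of intermediate level. It was recovered at 82 for Aged STD against Young STD, 89 for Aged ENR against Aged STD and 106 for Aged ENR against Young STD. A change of 40 points was recovered at 180, 188 and 191. A count of 0 called therefore does not exclude changes of 20 points.

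The named promoters were, per comparison and direction, the 4 largest differences with separated ranges among those with at least 5 CpGs and a value in every mouse compared, filled up by the largest moderated statistic, then the 6 lowest and 6 highest in young mice with at least 10 CpGs, the 4 with the most CpGs and up to 3 per gene list, of which 1 is not reported here. The members and lists were chosen with earlier results of these data known. The split by MspI site, and the fits without the 4 libraries of lowest composition index, were chosen after values had been inspected. Alternatives were other definitions of the promoter, other CpG minimums, the logit scale, 1 fit over all groups, covariates for library series and composition, a replicate block and leaving out each mouse.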

Additional observations from a re-analysis of the deposited data

Results flagged for a closer look

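Of 129 groups of mice at the named promoters, 15 held a mouse that stood apart from its group, measured as a gap to the nearest other mouse that was large for the range of the group, and chance alone marks about 1 in 20 groups. None of these was explained or tested further. Sox14 reached 17.1% in Aged STD replicate 7 and 13.5% in Aged ENR replicate 6, each the highest of its group. Dhodh reached 19.8% in Aged STD replicate 6 and 16.3% in Aged ENR replicate 4. Aqp11 was at 36.6% in Young STD replicate 1 and 17.1% in Aged ENR replicate 6, Vps26c at 7.39% in Young STD replicate 5 and Tfap2a at 11.4% in Young STD replicate 4, all above the others. Pea15a was at 3.44% in Young STD replicate 3, where the other young mice were near 0, and at -0.321% in Aged STD replicate 3, the lowest of its group. Slc28a3 was at 34.3% in Aged STD replicate 5. Abhd4 was lowest in Aged STD replicate 3 at 10.1%, and so was A1cf in the same mouse at 82.6%. Slc9a3r1 was highest in Aged STD replicate 6 at 5.56%, and the promoter of Fkbp15 and Slc31a1 in Aged ENR replicate 7 at 1.38%. Aged STD replicates 3 and 6 and Aged ENR replicate 4 are among the 4 libraries with the lowest composition index.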

How the results depend on the processing

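The number of promoters called was 0 for each comparison under all settings run, except 2 for Aged STD against Young STD with all groups in 1 limma fit, 3 for Aged ENR against Young STD on the logit scale, and 0 to 1 in that comparison when each mouse was left out (Fbxo34, without Aged ENR replicate 1). Leaving out each mouse gave 0 in the other comparisons and 0 CpGs throughout. With 1 prior variance, 13, 1 and 4 CpGs were called for Aged STD against Young STD, Aged ENR against Aged STD and Aged ENR against Young STD. The mean over sparse CpGs differed by -4.06, 1.70 and -2.36 points when each mouse contributed all its measured CpGs, and by -2.30 and -1.58 points for both aged groups against Young STD in MspI sites alone. Between the aged groups it turned to -0.181 without the 4 libraries and to -0.0668 with the composition index as covariate. Leaving out each mouse gave -1.31 to -0.831, 0.138 to 0.609 and -0.903 to -0.493 points. Of the named promoters, the sign turned for Dad1 in MspI sites alone (-0.42 points), Etl4 as a plain mean (-2.18), Fos with coding transcript starts (1.09) or within 500 bases (0.314), Aqr with coding transcript starts (-0.0729) and Atp2a3 within 500 bases (-4.61). The cause of these changes was not tested. The labels do not say that a replicate number marks a shared litter or batch, although 4 of 5, 7 of 7 and 4 of 5 same-numbered pairs of mice were of 1 library series. The numbers were not taken to pair the mice, since 0 same-numbered pairs of promoter deviations correlated above 0.1. With the number as a replicate block 0 promoters were called in each comparison, 630, 419 and 606 had an unadjusted p under 0.05 in limma, and the means differed by -0.984, 0.338 and -0.917 points. Depth is unknown, so that the counting error of a value, and its share in the spread between mice, could not be separated.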
